A study of Mus musculus with 36 samples.

Results

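The 7 genes described here carry out calcium uptake and calcium buffering in the muscle fibre. They are the calcium pumps Atp2a1 and Atp2a2, the pump inhibitors Sln and Pln, the calcium-binding proteins Casq1 and Casq2 of the sarcoplasmic reticulum, and the cytosolic calcium buffer Pvalb. They were chosen by gene name, and all 7 were found among the 46893 features of the count table. Gastrocnemius RNA was sequenced from 36 male wild-type C57BL/6 mice, 1 library per mouse, in 6 groups of 6. The mice were 3 to 4 weeks old at the start and were studied for 12 weeks. NFD-C mice were sedentary on a normal-fat diet and HFD-C mice were sedentary on a high-fat diet. The 4 running groups, HFD-25%, HFD-50%, HFD-75% and, unrestricted, HFD-U, ate the high-fat diet and ran 2.1, 4.2, 6.3 and 8.3 km/day. The 3 lower distances are 25, 50 and 75% of the unrestricted one. Running was on a wheel in the cage, which in these 3 groups was braked once a mouse had covered its distance and freed again at lights off. The question for these genes was whether running on a high-fat diet, or the distance run, changed their mRNA.

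Muscle contracts when calcium leaves the sarcoplasmic reticulum and relaxes when pumps of the SERCA family return it. SERCA1, the product of Atp2a1, is the pump of fast fibres, and SERCA2, the product of Atp2a2, is the pump of slow fibres and of the heart. Sarcolipin (Sln) and phospholamban (Pln) are small membrane proteins that inhibit these pumps, and sarcolipin is also known for uncoupling calcium transport from ATP use, which releases heat. Calsequestrin binds calcium inside the reticulum, with Casq1 as the main form in fast fibres and Casq2 as the cardiac form that slow fibres also make. Parvalbumin (Pvalb) binds calcium in the cytosol of fast fibres and speeds relaxation.

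Gene counts summed to 13060090 in the shallowest library and to 27981702 in the deepest, and the members held 2.14 to 4.29% of them. Levels are given as CPM, counts scaled to a common library size, and as FPKM, the same value per kilobase of gene length, where genes are set against each other. The libraries formed 2 sets that differ in how much of their counts fell on 5 rRNA-linked features. This rRNA-linked share was at least 1.5% in all 6 NFD-C mice and in HFD-C replicates 1 to 4, and between 0.404 and 1.02% in HFD-C replicates 5 and 6 and in all 24 running mice. Running and library set are thus largely confounded, so values within 1 set are given where they change a result. The tissue label was checked against marker lists. General skeletal muscle genes summed to between 30331 and 54751 CPM and fast fibre genes to between 62757 and 125810 CPM, with Myh4, the fast 2B myosin, at a median of 47482 CPM. Mylpf, a fast myosin light chain also on that list, was counted at only 0.179 to 2.95 CPM. The span of Septin1 overlaps Mylpf on the other strand and that of Pcsk7 overlaps the smooth muscle marker Tagln, so the counts of these 2 markers may miss reads and are not read as levels on their own. Whether reads were lost there was not tested. Both markers stayed in the values of their lists.

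On the scale per length, the 3 fast fibre members far exceeded the 4 other members in every mouse. Median FPKM over 36 mice was 10500 for Pvalb, 6349 for Atp2a1 and 1156 for Casq1. It was 22.0 for Atp2a2, 7.84 for Casq2, 3.32 for Sln and 1.01 for Pln. The same order held in 27 of 36 mice. Pvalb exceeded Atp2a1 in 33 of 36 mice and Casq2 exceeded Sln in 30 of 36, so the neighbours in these 2 places changed order in some mice. Atp2a2 exceeded Casq2 in 35 of 36 mice, and Sln exceeded Pln in 36 of 36. Within a mouse the median ratio of Atp2a1 to Atp2a2 was 290, and that of Casq1 to Casq2 was 152.

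**Figure D1:**
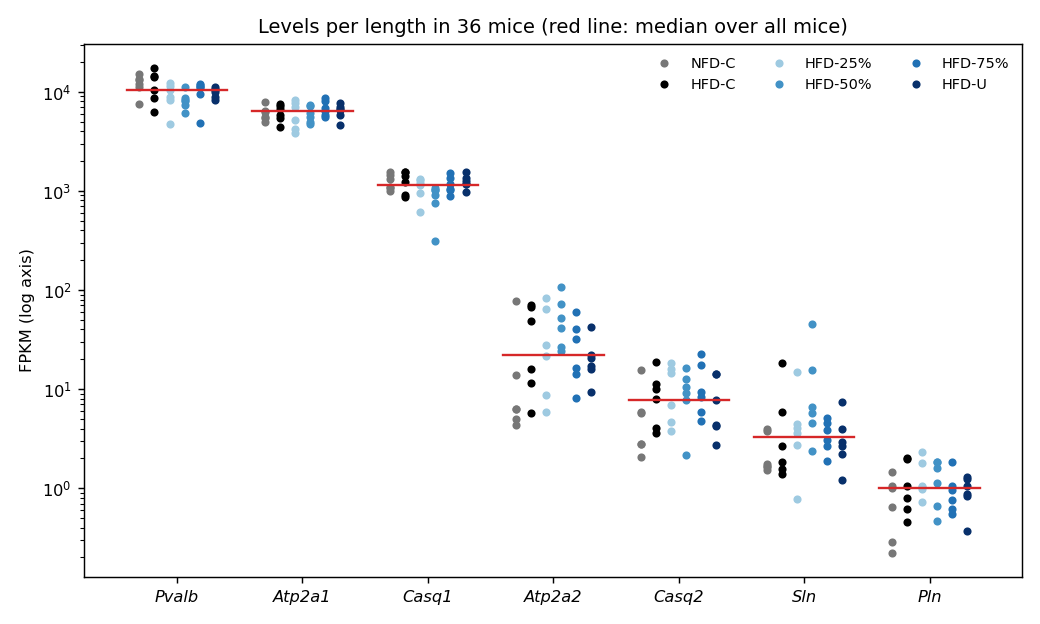
FPKM on a log axis for each of the 7 members in 36 mice, with points coloured by group and a red line at the median over all mice. Pvalb, Atp2a1 and Casq1 stand at medians of 10500, 6349 and 1156, above all 4 other members, whose medians lie between 1.01 and 22.0.

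The rare members also varied most between mice. The highest CPM was 2.26 times the lowest for Atp2a1, 3.61 times for Pvalb and 5.05 times for Casq1. It was 10.3 times for Pln, 10.9 times for Casq2, 24.6 times for Atp2a2 and 57.7 times for Sln. The coefficient of variation within groups ran from 16.9 to 31.0% for Atp2a1 and from 53.2 to 154% for Atp2a2. Sln and Pln rested on few reads, 7 to 406 and 11 to 141 per library, whereas Atp2a2 had 382 to 11381 and Atp2a1 at least 218331. All 7 members passed the minimum mean count of 25 and were tested in every comparison.

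No member passed the test in any comparison. In each of the 8 comparisons made, 0 of 7 members reached an adjusted p of at most 0.05 by the quasi-likelihood test of edgeR (Benjamini-Hochberg adjusted over all genes tested). Few other genes did so by edgeR. Across all genes this call was made for 0.0082% (HFD-25%), for 0% (each of HFD-50%, HFD-75%, HFD-U and NFD-C), for 0.3% when all running mice were set against HFD-C, for 0.683% for the distance over the HFD groups, and for 0.0251% among the running groups. At an unadjusted p of at most 0.05, Casq1 and Pvalb were called lower in HFD-50% (2 of 7 members, against 10.7% of all genes), Pvalb was called lower in all running mice together (1 of 7, against 9.27%), and Sln was called among the running groups (1 of 7, against 7.27%). This count was 0 of 7 in HFD-25% (6.98% of all genes), HFD-75% (5.47%), HFD-U (5.46%), NFD-C (4.12%) and for the distance (12.2%). DESeq2 also gave 0 of 7 members past the adjusted p in all 8 comparisons. In HFD-25% DESeq2 called 44 of 12202 genes at that threshold, where edgeR called 1. The shares of all genes given above are those of edgeR. With DESeq2 and a fold change threshold added, the authors reported genes past that adjusted p in each running group, the most in HFD-50%. Each group was compared with the same 6 HFD-C mice, so the comparisons are not independent. For every member, all 15 pairs of groups overlapped in CPM.

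**Figure D2:**
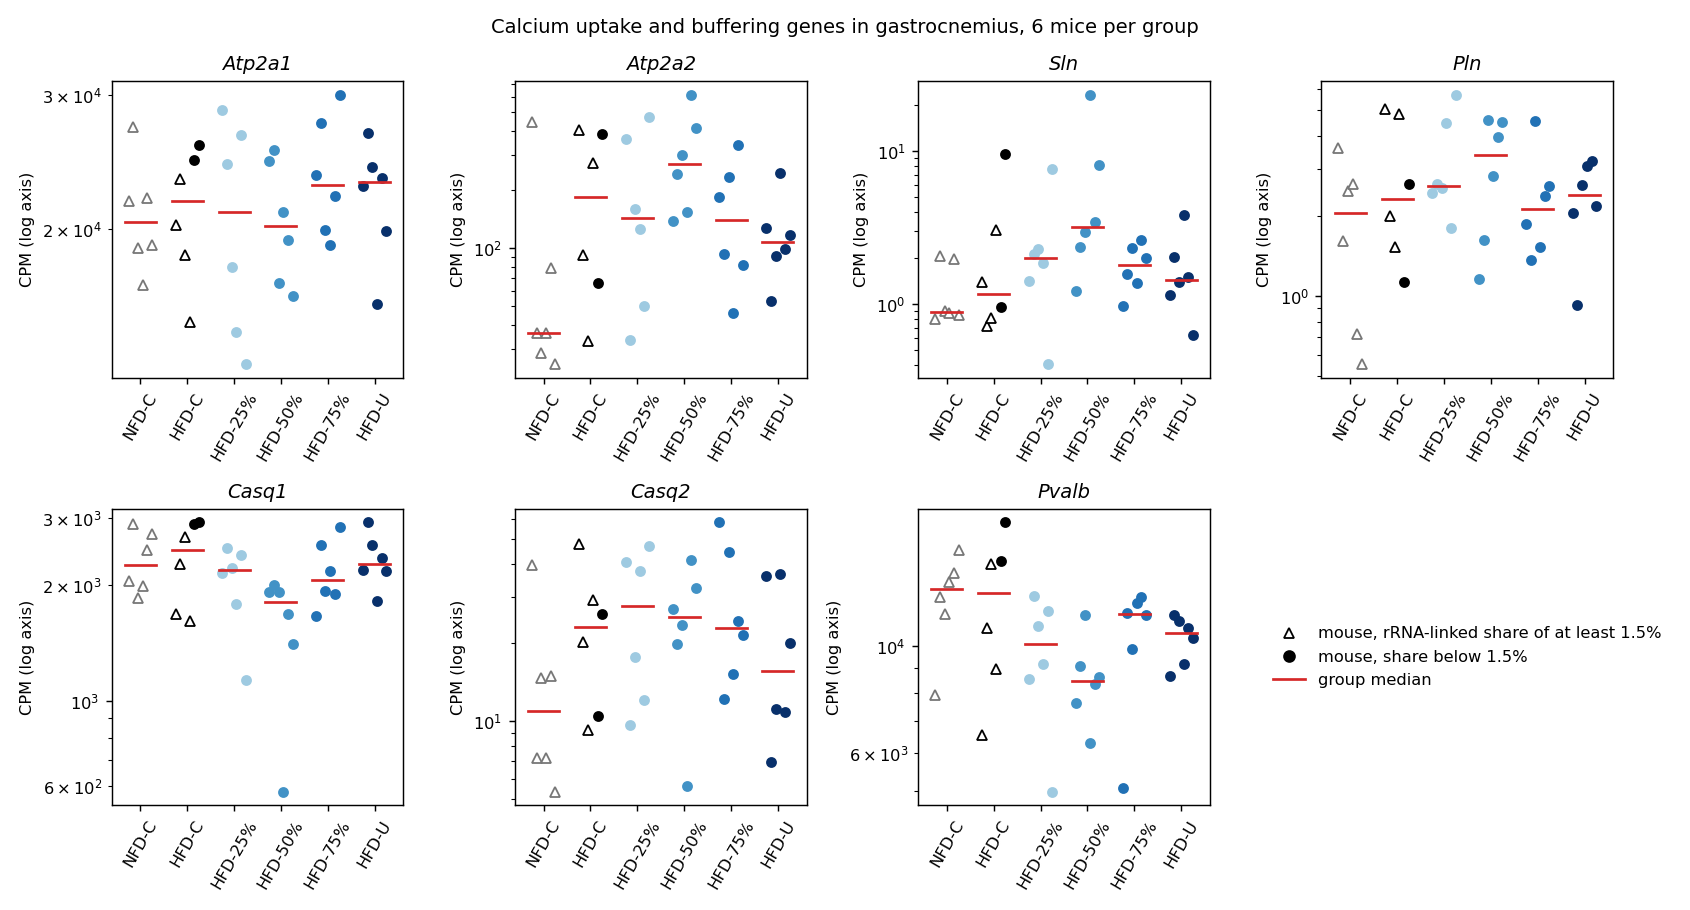
CPM on a log axis for each member in each of 36 mice, by group. Open triangles are mice with an rRNA-linked share of at least 1.5%, filled circles are mice below it, and red lines are group medians. Every group overlaps HFD-C for every member, and Pvalb in all 24 running mice lies under the HFD-C median of 12851 CPM.

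Of the pumps, Atp2a1 (gene 11937, chr7:126045032-126062245, minus strand, GRCm39) was the most even member. Its group medians lay between 20192 CPM in HFD-50% and 23035 CPM in HFD-U, with 21739 CPM in HFD-C and 20400 CPM in NFD-C. The whole range was 13290 to 30019 CPM, and both the lowest mouse and 1 of the highest belonged to HFD-25%, where the values spread from 13290 to 28605 CPM. The log2 differences from HFD-C were all small, between −0.05 in HFD-50% (SE 0.19) and 0.15 in HFD-75% (SE 0.18). The 95% interval for HFD-50% ran from 0.726 to 1.28-fold, so a doubling or a halving lies outside it. Within the low rRNA-linked set, which leaves 2 HFD-C mice, the HFD-75% and HFD-U differences turned from 0.15 to −0.11 and from 0.04 to −0.21, also without a call.

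Atp2a2 (gene 11938, chr5:122591576-122640288, minus strand) spread over more than 10-fold within 3 of the 6 groups, HFD-C, HFD-25% and NFD-C. The lowest, median and highest values were 32.98, 184 and 406 CPM in HFD-C. In HFD-25% they were 33.6, 142 and 473 CPM, and in HFD-50% 138, 270 and 618 CPM. In HFD-75% they were 46.3, 139 and 341 CPM, in HFD-U 53.3, 108 and 243 CPM, and in NFD-C 25.2, 36.3 and 447 CPM. HFD-50% had the highest median and NFD-C the lowest, and every group overlapped HFD-C. The log2 difference from HFD-C was 0.57 in HFD-50% (SE 0.54, adjusted p = 0.748), −0.80 in HFD-U (SE 0.51, adjusted p = 0.981) and −0.95 in NFD-C (SE 0.74, adjusted p = 0.9996 by edgeR's quasi-likelihood test). The 95% interval in NFD-C ran from 0.174 to 1.53-fold. In NFD-C a single mouse, replicate 1, held 447 CPM while the other 5 lay between 25.2 and 78.7 CPM. Without it the log2 difference was −2.34 (adjusted p = 0.424, edgeR's quasi-likelihood test). A list of 7 slow fibre genes moved with Atp2a2. Its summed level had a median of 109 CPM in NFD-C and 1043 CPM in HFD-C. Among the runners the median was highest in HFD-50%, at 1636 CPM, followed by HFD-25% with 965 CPM and by HFD-75% and HFD-U with 674 and 673 CPM, and single mice ran from 26.4 to 3871 CPM over all mice. With that list's level as a covariate, the Atp2a2 difference turned to −0.20 in HFD-50% and to 0.32 in NFD-C. In whole muscle, fewer slow fibres and less of this RNA per slow fibre cannot be told apart.

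Atp2a2 supplied a small share of the mRNA of both SERCA members. Per length, it made up 0.0792 to 2.09% of the sum of Atp2a1 and Atp2a2, with a median of 0.344%. Group means were 0.613% ± 0.498 (SD, n = 6) for HFD-C, 0.962% ± 0.629 for HFD-50%, 0.365% ± 0.278 for HFD-U and 0.303% ± 0.453 in NFD-C. None of the 5 differences from HFD-C passed a two-sided exact permutation test over the 15 shares tested here (lowest p for this share 0.314, adjusted p = 0.844).

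Among the pump inhibitors, Sln (gene 66402, chr9:53757535-53761133, plus strand) gave the widest differences from HFD-C, on a median of 33 reads per library against 40.5 for Pln. The lowest, median and highest values were 0.717, 1.17 and 9.60 CPM in HFD-C. In HFD-25% they were 0.406, 1.99 and 7.67 CPM, and in HFD-50% 1.23, 3.20 and 23.5 CPM. In HFD-75% they were 0.968, 1.80 and 2.63 CPM, in HFD-U 0.633, 1.45 and 3.81 CPM, and in NFD-C 0.798, 0.890 and 2.08 CPM. All 6 HFD-50% mice lay above the HFD-C median, as did 20 of 24 running mice, but HFD-C replicate 6 exceeded all running mice except HFD-50% replicate 4. The log2 difference from HFD-C was 1.37 in HFD-50% (SE 0.75, 95% interval 0.855 to 7.79-fold, adjusted p = 0.532 by edgeR's quasi-likelihood test). Single mice and the library set moved this value. It was 0.41 without HFD-50% replicate 4 and 2.34 without HFD-C replicate 6, with adjusted p = 0.259 in the latter edgeR fit. Among the 4 running groups Sln had an unadjusted p of 0.00483 and an adjusted p of 0.461, and without HFD-50% replicate 4 the unadjusted p was 0.183. In NFD-C the log2 difference was −1.11 (SE 0.60, adjusted p = 0.9996 by edgeR). Within the low rRNA-linked set, which leaves 2 HFD-C mice, the HFD-50% difference fell to 0.41. There the HFD-25% difference was −1.01, against −0.07 over all mice. For HFD-75% and HFD-U it was −0.58 and −0.64 over all mice, and −1.53 and −1.60 within that set.

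HFD-50% replicate 4 stood apart in more than Sln. It had the highest Sln level of all 36 mice, 23.5 CPM, and the lowest Casq1 level, 579 CPM. The Sln and Casq1 differences in HFD-50% are therefore also given without it.

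Pln (gene 18821, chr10:53213782-53222095, plus strand) ranged from 0.554 CPM in an NFD-C mouse to 5.72 CPM in an HFD-25% mouse. Group medians lay between 2.05 CPM in NFD-C and 3.40 CPM in HFD-50%, with 2.32 CPM in HFD-C, and the groups overlapped. The log2 differences from HFD-C lay between −0.56 in NFD-C (SE 0.47) and 0.17 in HFD-25% (SE 0.39). Within the low rRNA-linked set the difference was larger in HFD-25% (0.78, against 0.17) and HFD-50% (0.73, against 0.12). In HFD-75% and HFD-U it changed sign within that set, from −0.28 to 0.32 and from −0.30 to 0.30. The Pln locus is overlapped by Cep85l on the other strand, and the strand setting of the counting is not given in the sources used here, so reads of the overlapping stretch cannot be assigned with certainty. The same applies to Atp2a1, overlapped by Rabep2, and to Casq1, overlapped by Gm17224.

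Per length, Pln made up 2.47 to 48.5% of the sum of both inhibitors, with a median of 20.98%. HFD-50% mice averaged 14.3% ± 7.69 (SD, n = 6) and HFD-C mice 26.4% ± 13.2. This was the lowest p of the 15 share tests, 0.0844 in the exact permutation test, with an adjusted p of 0.844. With only the 2 HFD-C mice of the low set, the difference turned from −12.1 to 1.65 percentage points.

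**Figure D3:**
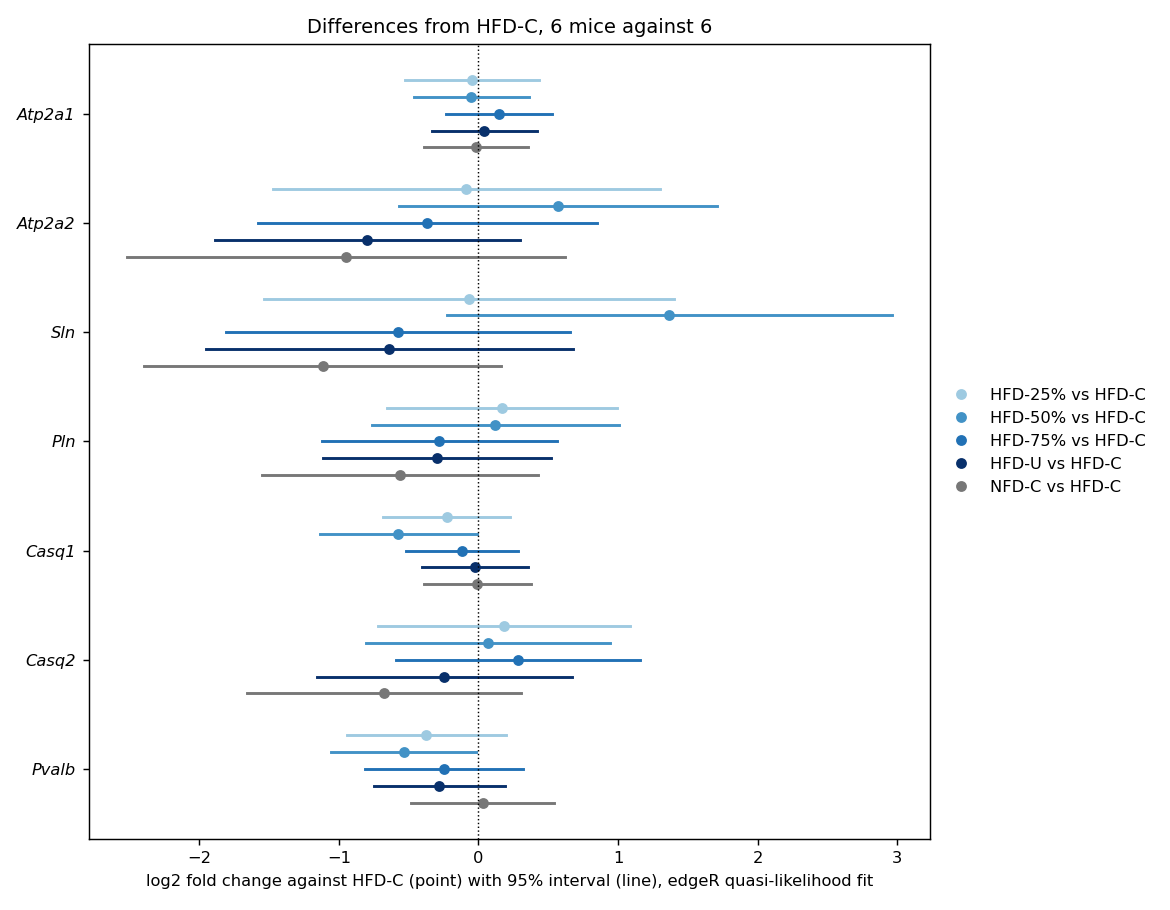
Log2 fold change of each member against HFD-C in 5 comparisons of 6 mice against 6, with 95% intervals from edgeR's quasi-likelihood fit. The intervals of Casq1 and Pvalb in HFD-50% lie just under 0, those of the other members include 0, and those of Sln and Atp2a2 are the widest.

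Of the luminal buffers, Casq1 (gene 12372, chr1:172037461-172047462, minus strand) was lowest in HFD-50%. The lowest, median and highest values were 1615, 2478 and 2922 CPM in HFD-C, and 579, 1806 and 2000 CPM in HFD-50%. They were 1135, 2189 and 2498 CPM in HFD-25%, 1669, 2061 and 2841 CPM in HFD-75%, 1823, 2272 and 2924 CPM in HFD-U, and 1857, 2266 and 2891 CPM in NFD-C. All 6 HFD-50% mice lay under the HFD-C median, and 2 of them lay under every HFD-C mouse. The log2 difference was −0.58 (SE 0.26, 95% interval 0.455 to 0.991-fold, unadjusted p = 0.0455, adjusted p = 0.457 by edgeR's quasi-likelihood test). Without HFD-50% replicate 4 it was −0.40. Of the 12 fits that each left out 1 mouse, 5 kept the unadjusted call. Within the low rRNA-linked set, with 2 HFD-C mice, it was −0.88 (adjusted p = 0.503 by edgeR). The slow fibre list had its highest median in HFD-50%, 1636 CPM against 1043 CPM in HFD-C. With that list's level as a covariate the Casq1 difference was −0.49 (adjusted p = 0.679 by edgeR) and no longer passed an unadjusted p of 0.05. The other differences were nearer to 0, with −0.23 in HFD-25% (SE 0.21), −0.12 in HFD-75% (SE 0.19), and −0.02 and −0.01 for HFD-U and NFD-C (SE 0.18 for both). Over the distance, with a linear and a quadratic term, the unadjusted p was 0.0809 and the adjusted p 0.479.

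Casq2 (gene 12373, chr3:101993731-102053830, plus strand) ran from 5.34 to 58.1 CPM over all mice. Its group medians fell from 27.6 CPM in HFD-25% over 25.2 (HFD-50%), 23.0 (HFD-C), 22.8 (HFD-75%) and 15.6 (HFD-U) to 10.9 CPM in NFD-C, and the groups overlapped. The log2 difference from HFD-C lay between −0.67 in NFD-C (SE 0.46, adjusted p = 0.9996 by edgeR) and 0.29 in HFD-75% (SE 0.41). As for Atp2a2, NFD-C replicate 1 stood far above its group, at 39.7 CPM, and without it the difference was −1.26 (adjusted p = 0.492 by edgeR). Per length, Casq2 made up 0.143 to 2.93% of calsequestrin mRNA, with a median of 0.655%. Its group mean was 0.855% ± 0.690 (SD, n = 6) in HFD-C, and the 5 differences from it lay between −0.36 and 0.32 percentage points (exact permutation tests, lowest p 0.301, adjusted p = 0.844).

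The cytosolic buffer Pvalb (gene 19293, chr15:78075312-78090600, minus strand) was under the HFD-C median in every running mouse. The lowest, median and highest values were 6551, 12851 and 18041 CPM in HFD-C, and 7903, 13101 and 15774 CPM in NFD-C. They were 4991, 10099 and 12706 CPM in HFD-25%, 6301, 8480 and 11618 CPM in HFD-50%, 5073, 11646 and 12603 CPM in HFD-75%, and 8673, 10634 and 11605 CPM in HFD-U. All 24 running mice lay under the HFD-C median, which was also so for 66 of 12053 genes (0.548%). The running mice still overlapped HFD-C, whose replicates 1, 2 and 4 held 6551, 10906 and 8969 CPM. The log2 difference from HFD-C was −0.54 in HFD-50% (SE 0.24, 95% interval 0.481 to 0.990-fold, unadjusted p = 0.0446, adjusted p = 0.455 by edgeR's quasi-likelihood test). The other runners gave −0.37 (HFD-25%, SE 0.27), −0.25 (HFD-75%, SE 0.27) and −0.28 (HFD-U, SE 0.22), and NFD-C gave 0.03 (SE 0.24). For all running mice together it was −0.36 (SE 0.17, unadjusted p = 0.04998, adjusted p = 0.539 by edgeR). The unadjusted call was kept in 4 of 12 fits without 1 mouse in HFD-50%, and in 3 of 6 fits without 1 HFD-C mouse for all runners. With the slow fibre level as a covariate the HFD-50% difference was −0.50 (adjusted p = 0.656 by edgeR), and it no longer passed the unadjusted threshold either.

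The Pvalb difference grew within the low rRNA-linked set. Against HFD-C replicates 5 and 6 alone, which held 14989 and 18041 CPM, the log2 difference was −0.95 for HFD-50% mice, and for HFD-25%, HFD-75% and HFD-U mice it was −0.78, −0.67 and −0.70. The adjusted p in these 4 edgeR fits lay between 0.293 and 0.550, with 6 mice against 2. After adjustment for the rRNA-linked share, the difference for all running mice was −0.78 and the adjusted p was 0.101 by edgeR's quasi-likelihood test, the lowest of any member in the 168 fits made. Only 2 sedentary HFD mice shared the library set of the runners, so running and library set cannot be told apart for Pvalb.

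Within groups, Atp2a2, Pln and Casq2 rose and fell together, here called the slow set, and Casq1 did so with Pvalb and with Atp2a1, here called the fast set. This was measured as the correlation over 36 mice of log2 CPM after removal of the group means, with permutation p-values from 100000 resamples, of which the smallest possible is 1e-05, and Benjamini-Hochberg adjustment over 35 relations. The resampling treated the 36 deviations as independent although 6 group means had been removed, so these p-values come out somewhat low. Of 21 pairs of members, 11 passed an adjusted p of 0.05 for Pearson's r, 5 of them positive and 6 negative, and 10 of these also passed for Spearman's rho. The weakest member pair that passed had an absolute r of 0.428, which 14.4% of all gene pairs reached. Of the 3 pairs in the fast set, Atp2a1 and Pvalb did not pass (r = 0.27, adjusted permutation p = 0.151). All 9 pairs across both sets had a negative r and 5 of them passed for Pearson's r. Casq1 passed with Casq2 (rho = −0.46, adjusted permutation p = 0.0110) and with Atp2a2 (rho = −0.44, adjusted permutation p = 0.0143) for Spearman's rho alone. In the 10 high-share mice, Atp2a1 had an r of 0.06 with Atp2a2 and of 0.05 with Casq2. For Pearson's r, Sln passed with 1 of 6 other members, Casq1 (r = −0.47, adjusted permutation p = 0.0120), which did not pass for Spearman's rho. For Spearman's rho, Sln passed with Pln alone (rho = 0.38, adjusted permutation p = 0.0374), which did not pass for Pearson's r (adjusted permutation p = 0.0631). The slow fibre list passed with 6 of 7 members for Pearson's r. The smallest absolute r among these was 0.375, which 17.2% of the 12046 genes outside the list reached.

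Atp2a2 followed the slow fibre genes most closely. Pearson's r with the mean of the 7 slow fibre genes was 0.93 and Spearman's rho 0.94 (permutation p = 1e-05 for both, adjusted p = 8.75e-05 and 0.000117). It was 0.90 without the 2 mice farthest from the median of the list, 0.95 in the 26 low-share mice and 0.91 in the 10 high-share mice. Casq2 came next, with r = 0.75 and rho = 0.78 (permutation p = 1e-05 for both, adjusted p = 8.75e-05 and 0.000117), and r within the sets was 0.67 and 0.92. For Pln, r was 0.58 and rho 0.54 (permutation p = 0.00017 and 0.00075, adjusted p = 0.000875 and 0.00257), with 0.66 and 0.51 within the sets. Sln was looser, with r = 0.38 and rho = 0.36 (permutation p = 0.0250 and 0.0315, adjusted p = 0.0460 and 0.0501), and r was 0.20 in the 10 high-share mice. Atp2a2 and Casq2 were also tied to each other, with r = 0.80 and rho = 0.83 (permutation p = 1e-05 for both, adjusted p = 8.75e-05 and 0.000117), 0.76 without the 2 farthest mice, and 0.75 and 0.92 within the sets.

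**Figure D4:**
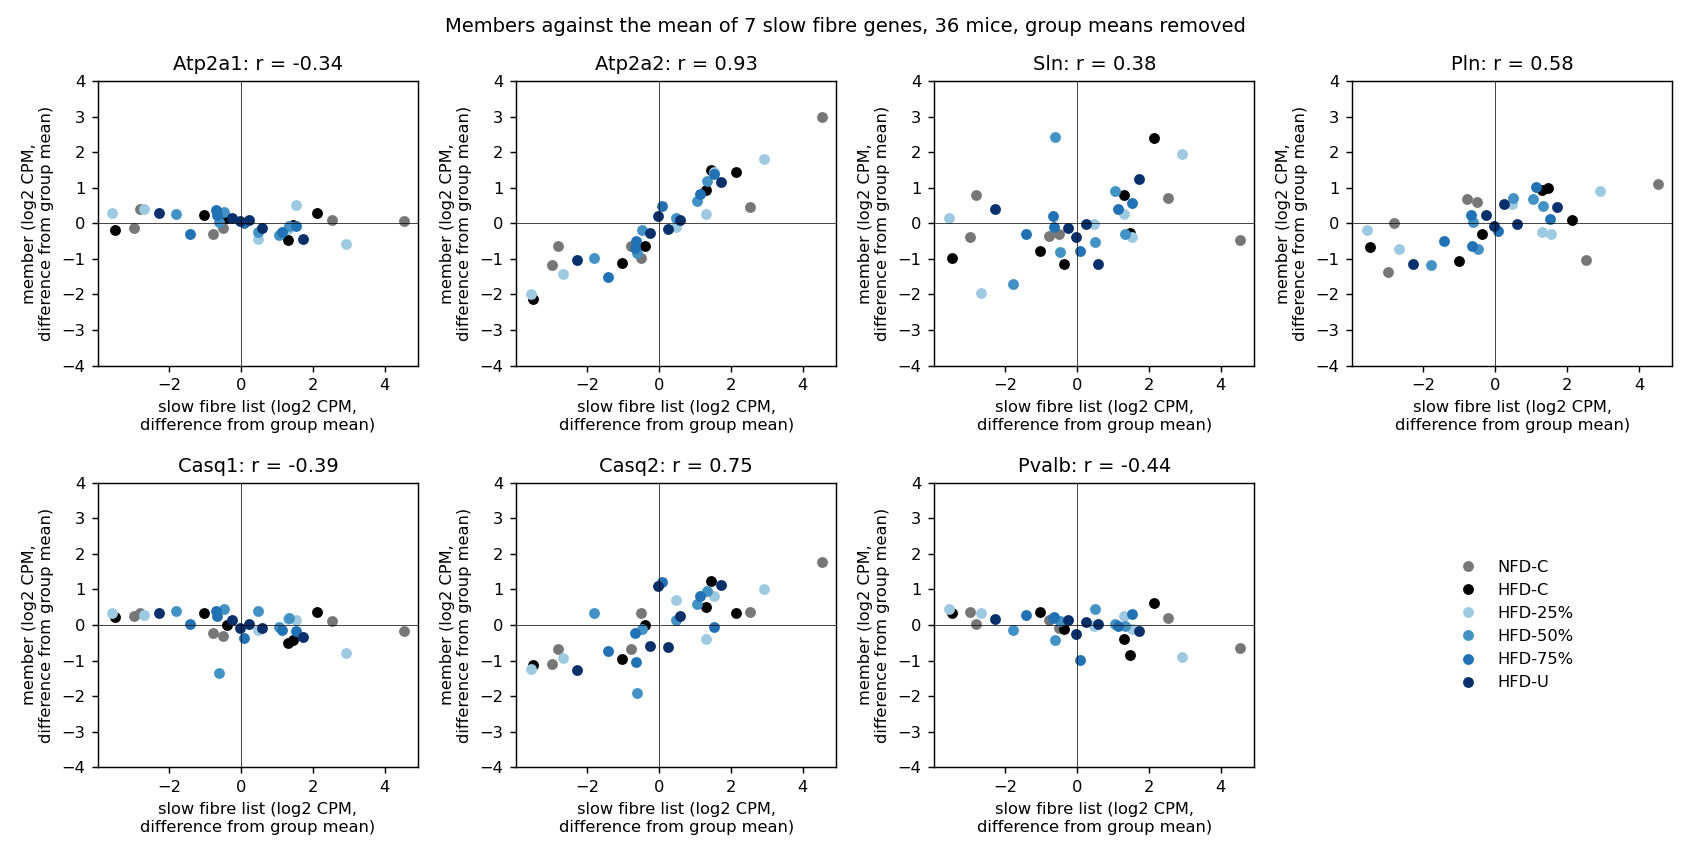
Each member's log2 CPM against the mean log2 CPM of 7 slow fibre genes, both as differences from the group mean, in 36 mice coloured by group. Atp2a2 (r = 0.93) and Casq2 (r = 0.75) rise along the x axis, whereas Casq1 (r = −0.39) and Pvalb (r = −0.44) fall slightly.

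In the fast set, Casq1 and Pvalb rose and fell together, with r = 0.70 and rho = 0.69 (permutation p = 1e-05 and 2e-05, adjusted p = 8.75e-05 and 0.000175), 0.69 without the 2 farthest mice, and 0.70 and 0.73 within the sets. Atp2a1 and Casq1 gave r = 0.53 and rho = 0.62 (permutation p = 0.00058 and 0.00012, adjusted p = 0.00226 and 0.0007), 0.42 without the 2 farthest mice, and 0.51 and 0.58 within the sets. Casq2 and Pvalb were inversely related, with r = −0.59 and rho = −0.66 (permutation p = 0.00013 and 4e-05, adjusted p = 0.000875 and 0.00028), −0.69 without the 2 farthest mice, and −0.46 and −0.89 within the sets. The slow fibre list was lower where Pvalb was higher, with r = −0.44 and rho = −0.40 (permutation p = 0.00793 and 0.0161, adjusted p = 0.0174 and 0.0297), but only −0.30 in the low-share mice. For the slow fibre list and Atp2a1, r was −0.34 and rho −0.32 (permutation p = 0.0453 and 0.0598, adjusted p = 0.0661 and 0.0871), which did not pass.

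Pln is also made in smooth muscle, and a list of 6 smooth muscle genes moved with it. Over 36 mice r was 0.51 and rho 0.54 (permutation p = 0.00181 and 0.00088, adjusted p = 0.00453 and 0.00257), 0.47 without the 2 farthest mice, and 0.37 and 0.67 within the sets. The same list was lower where Atp2a1 was higher, with r = −0.58 and rho = −0.54 (permutation p = 0.0002 and 0.00088, adjusted p = 0.000875 and 0.00257), −0.58 without the 2 farthest mice and −0.60 and −0.63 within the sets. The smooth muscle list summed to 48.7 to 148 CPM, with group medians between 75.6 and 105 CPM, and Tagln, one of its defining markers, was counted at 0.535 CPM or less, with the overlap given above. In the list mean used for these correlations Tagln had the same weight as each other gene. Cardiac genes summed to 0.779 to 9.45 CPM. The part of smooth muscle in the Pln values was not tested.

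**Figure D5:**
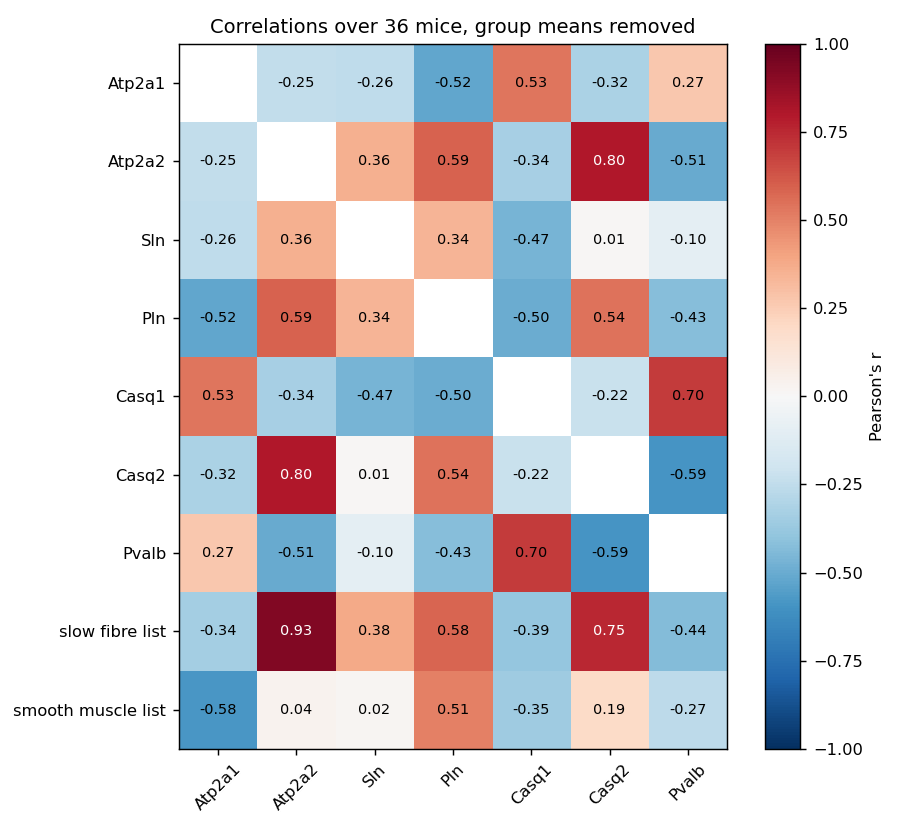
Pearson's r over 36 mice, group means removed, between the 7 members and between each member and the slow fibre and smooth muscle lists. Atp2a2, Casq2 and Pln are positively related to each other (0.54 to 0.80), Casq1 is positively related to Pvalb (0.70) and Atp2a1 (0.53), and the 9 relations across these sets are below 0, of which 5 passed an adjusted p of 0.05.

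The upstream sequences of 4 members are shown because they fall into the slow set (Casq2 and Pln) and the fast set (Casq1 and Pvalb). RefSeq promoter windows on GRCm38.p6 were at hand for 5 of the 7 members, and Atp2a2 and Sln had no entry. Each line gives the 250 bases before the annotated start, read 5′ to 3′ on the strand of the gene. Capitals mark matches to the E-box CANNTG, the site of myogenic bHLH factors, which reads the same on both strands, and to the MEF2 site, searched on both strands.
Casq2, chr3:102086165-102086414, plus strand: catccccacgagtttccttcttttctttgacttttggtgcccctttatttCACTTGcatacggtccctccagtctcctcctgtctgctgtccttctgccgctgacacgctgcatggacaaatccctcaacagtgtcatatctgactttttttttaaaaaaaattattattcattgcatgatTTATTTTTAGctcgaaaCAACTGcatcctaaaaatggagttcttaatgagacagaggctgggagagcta
Pln, chr10:53337436-53337685, plus strand: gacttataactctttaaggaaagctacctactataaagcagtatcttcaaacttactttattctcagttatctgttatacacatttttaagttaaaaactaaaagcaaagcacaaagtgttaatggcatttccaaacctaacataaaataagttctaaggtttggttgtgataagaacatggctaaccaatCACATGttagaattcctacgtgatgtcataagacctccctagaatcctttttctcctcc
Casq1, chr1:172219896-172220145, minus strand: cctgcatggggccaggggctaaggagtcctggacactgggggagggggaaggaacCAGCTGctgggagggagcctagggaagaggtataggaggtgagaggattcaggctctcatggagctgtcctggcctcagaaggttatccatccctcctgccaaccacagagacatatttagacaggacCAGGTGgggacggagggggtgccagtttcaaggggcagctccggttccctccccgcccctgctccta
Pvalb, chr15:78206401-78206650, minus strand: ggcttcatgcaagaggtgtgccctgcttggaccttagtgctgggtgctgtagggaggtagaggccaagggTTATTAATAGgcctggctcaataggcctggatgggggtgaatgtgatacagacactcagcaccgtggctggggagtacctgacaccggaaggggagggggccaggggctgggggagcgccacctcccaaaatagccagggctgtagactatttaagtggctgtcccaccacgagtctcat

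E-boxes were found in Casq1 (2), Casq2 (2), Pln (1) and Atp2a1 (1), and 66.2% of 32851 windows of this length hold one. A MEF2 match was found once in Casq2 and once in Pvalb, against 2.92% of all windows, so 1 window of each set held it. The NFAT core GGAAA, searched on both strands and not marked in the lines above, was found in Pln (2) and Casq2 (1) and in none of the Casq1, Pvalb and Atp2a1 windows, against 55.6% of all windows. The MCAT site CATTCC, on both strands, was found in none of them, against 12.6%. RefSeq lists 2 starts for Pvalb, and the one shown is the farther upstream. The other held an E-box and no MEF2 match. The GC content of the windows was 32.8% for Pln and 41.6% for Casq2, against 58.4% for Pvalb, 61.6% for Casq1 and 64% for Atp2a1. A match is a description of the sequence, and the data hold no measure of binding.

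The genes most like each member within groups, among 12053 genes of sufficient count, were named by the highest Pearson's r over 36 mice. For Atp2a2 they were Tpm3 (0.93), Myl3 (0.91) and Tnni1 (0.91), all slow fibre sarcomere genes that are also on the slow fibre list. For Casq2 they were Fndc5 (0.94), Pdlim1 (0.92) and Decr1 (0.92), the last an enzyme of fatty acid oxidation. For Casq1 they were Pkm (0.95), Pgm1 (0.94) and Phkg1 (0.94), which act in glycolysis and glycogen breakdown. For Pvalb they were Pdlim7 (0.91), Myl1 (0.91) and Myoz1 (0.90), of which Myl1 and Myoz1 encode sarcomere proteins of fast fibres. For Atp2a1 they were Mypn (0.92), Adipor1 (0.91) and Ptov1 (0.90). The members with few reads had weaker neighbours, Myh7b (0.75), TrnS2 (0.75) and Ttc41 (0.73) for Pln and Miip (0.73), Tra2a (0.71) and Dhtkd1 (0.70) for Sln.

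The wider pathway gave no adjusted call in any of the 8 comparisons. Of 13 other genes of SERCA and its regulation, among them the pump gene Atp2a3 and the micropeptide gene Mrln, 10 were tested. Of these, 0 passed even an unadjusted p of 0.05. All 13 genes of the reticulum lumen and junction were tested. Asph, which encodes the junctional protein junctin among others, was lower in HFD-50% at an unadjusted level (log2 difference −0.47, SE 0.15, adjusted p = 0.285 by edgeR). This was the only unadjusted call among the 13 genes, 1 of 13 against 10.7% of all genes. Their median log2 difference from HFD-C was −0.12 in HFD-25%, −0.10 for HFD-50%, 0.02 for HFD-75%, −0.04 for HFD-U and 0.03 for NFD-C, against −0.01 to 0.01 over all genes. Of 11 genes for calcium clearance at the plasma membrane and mitochondria, 9 were tested. The sodium-calcium exchanger Slc8a3 was lower at an unadjusted level in HFD-50% (−0.61, SE 0.21, adjusted p = 0.293) and HFD-75% (−0.43, SE 0.17, adjusted p = 0.812 by edgeR). At that level it was also lower in all running mice (−0.36, SE 0.16, adjusted p = 0.454 by edgeR). Its relative Slc8a1 was lower in HFD-25% (−0.38, SE 0.16, adjusted p = 0.669) and HFD-50% (−0.46, SE 0.18, adjusted p = 0.377 by edgeR). These calls were 1 of 9 genes in HFD-25% and 2 of 9 in HFD-50%, against 6.98 and 10.7% of all genes. In HFD-75% and in all running mice 1 of 9 was called, against 5.47 and 9.27%. HFD-U and NFD-C gave 0 of 9, against 5.46 and 4.12%. Over the distance Slc8a3, Slc8a1 and the plasma membrane pump Atp2b4 had unadjusted p-values of 0.00445, 0.00682 and 0.00689, with adjusted p between 0.168 and 0.199 in edgeR. These were 3 of 9 genes, against 12.2% of all genes. Among the running groups Atp2b4 was called (1 of 9, against 7.27%), with an unadjusted p of 0.0189 and an adjusted p of 0.578 by edgeR. The other cytosolic buffers, Calb1, Calb2 and Ocm, had too few reads to be tested.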

How the data were processed

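The authors prepared poly(A)-selected libraries of gastrocnemius RNA, sequenced them in pairs of 150-base reads, and deposited whole-number counts per gene without normalization. The submitters' processing notes name HISAT2 2.0.5, StringTie 1.3.3b and featureCounts 1.5.0-p3, and the build mm10, whereas the chromosome accessions beside the counts are those of GRCm39, the build given for gene positions here. Promoter windows are on GRCm38.p6 and were not mixed with these. No aligned reads were reprocessed. Gene lengths came from the deposited table.

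Fits were made in R 4.3.3 with edgeR 4.0.16 (TMM factors, quasi-likelihood F-test, two-sided, Benjamini-Hochberg adjustment over all genes whose mean count in the fit reached 25). CPM used TMM-scaled library sizes. The scripts were tested on simulated data. A comparison with HFD-C used only the libraries of both groups. Further fits covered all running mice, the distance, and the running groups. The 90 pairs of libraries of 1 group differed by 14.7 to 181 times the variance of sampling, so none was counted as a duplicate. That mice of 1 group are separate animals is taken from the labels.

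All members are described in every comparison. Of each pathway list, at most the 3 genes with the smallest unadjusted p of at most 0.05 are named, and for each member the 3 genes with the highest correlation. The members, the lists and these rules were chosen with earlier results of these data known. Alternatives were DESeq2 1.42.0, RLE size factors, no minimum count, the replicate number as a block, 1 fit over all mice, the rRNA-linked share or the slow fibre level as a covariate, 1 library set alone, and leaving out each mouse. For all running mice together only HFD-C mice were left out, and no runner was. Leaving HFD-50% replicate 4 out of the fit among the running groups, and leaving mice numbered 1 out of the correlations, was chosen after seeing the data. Mice carry the numbers 1 to 6 in each group, and the labels do not say that these numbers pair mice. Same-numbered mice of HFD-U and HFD-C deviated together, with a correlation over 0.1 in all 6 pairs (0.125 to 0.510), which was so for 1 to 5 of 6 pairs elsewhere. The pairs of mice numbered 1 exceeded 0.1 in every group, with 0.323 in HFD-25% as the lowest and 0.598 in NFD-C as the highest.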

Additional observations from a re-analysis of the deposited data

Results flagged for a closer look

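Single mice stood apart from the other 5 of their group by Dixon's test in 10 of 60 groups of values tested. A rate of about 1 in 20 by chance holds only for independent, normally distributed values. The values here were CPM and percentages without logs, and the shares come from the same counts, so the 10 are not read against that rate. In NFD-C, replicate 1 was highest for Atp2a2 (447 CPM) and for Casq2 (39.7 CPM). It was also highest for the share of Atp2a2 among both SERCA members (1.22%) and of Casq2 among the calsequestrins (1.39%). Sln was highest in HFD-C replicate 6 (9.60 CPM), in HFD-25% replicate 6 (7.67 CPM) and in HFD-50% replicate 4 (23.5 CPM). The share of Atp2a2 was highest in HFD-25% replicate 6 (2.09%) and in HFD-U replicate 4 (0.905%). Pvalb was lowest in HFD-75% replicate 1 (5073 CPM).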

How the results depend on the processing

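No alternative brought a member past an adjusted p of 0.05 in any of the 8 comparisons (168 fits, 97 of them leaving out 1 mouse), and the lowest adjusted p was 0.101, for Pvalb in all running mice after adjustment for the rRNA-linked share. At an unadjusted p of at most 0.05, the number of members called was 2 after that adjustment in HFD-25%, HFD-75%, HFD-U, all running mice and the distance, and 0 among the running groups. The share of all genes called rose as well, to 8.42 to 15.1% in these 5 comparisons, against 5.46 to 12.2%. Among the running groups that share fell to 3.18%, against 7.27%. Within 1 library set the member count was 1 in HFD-25% and 2 in HFD-75%, HFD-U and the distance (8.99 to 11.8% of all genes). With the slow fibre level as a covariate it was 0 in HFD-50% and all running mice and 1 in HFD-75%, against 5.56 to 9.65% of all genes. Without a minimum count it was 1 in NFD-C and the distance, 0 in all running mice and 2 among the running groups, against 8.59 to 19.9%. It was 1 in NFD-C with DESeq2 (4.54% of all genes) and 0 in all running mice with RLE size factors (9.2%). For the distance it was 1 in 1 fit over all mice (12.7%). The replicate block, a paired analysis by mouse number, gave 1 in NFD-C and 2 among the running groups (6.94 and 12.4% of all genes). It gave 3 in HFD-50% (14.1% of all genes), against 2 in the main fit (10.7%). In HFD-U, where same-numbered mice deviated together, it changed no call (10.2% of all genes, against 5.46%). Of the HFD-U mice, 5 of 6 correlated best with the HFD-C mouse of their own number, and in the other groups 1 to 4 of 6 did.

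The log2 differences from HFD-C given next changed sign, none of them past the adjusted p, and the cause was not tested. Under the replicate block they were Sln in HFD-25% (0.12) and Casq1 in HFD-U (0.0065) and NFD-C (0.019). With the slow fibre level as a covariate they were Atp2a2 (0.071) and Sln (0.20) in HFD-25%, Atp2a2 (−0.20), Pln (−0.46) and Casq2 (−0.37) in HFD-50%, and Atp2a2 (0.32), Pln (0.055), Casq2 (0.17) and Pvalb (−0.18) in NFD-C. With the rRNA-linked share and within 1 library set, in that order, they were Atp2a1 in HFD-75% (−0.12 and −0.11), HFD-U (−0.21 and −0.21), NFD-C (0.11 and 0.12) and all running mice (−0.29 and −0.23). Likewise they were Pln in HFD-75% (0.33 and 0.32), HFD-U (0.42 and 0.30) and all running mice (0.70 and 0.55), Casq2 in HFD-U (0.34 and 0.13) and Casq1 in NFD-C (0.23 and 0.18). In all running mice they were also Atp2a2 with the rRNA-linked share (0.26) and Sln within 1 library set (−0.68). Of the shares, that of Atp2a2 in HFD-25% turned as a log2 ratio (−0.036), and within 1 library set those of Casq2 in HFD-U (0.235 points) and of Pln in HFD-50% (1.65), HFD-75% (8.81) and HFD-U (12.6) did.

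Mice were left out 1 at a time. At an unadjusted p of at most 0.05, this called between 0 and 2 members in HFD-50%, NFD-C and for the distance. The shares of all genes called there were 8.46 to 13.5%, 3.08 to 6.41% and 9.96 to 14.9%. Between 0 and 1 members were called in HFD-U (4.38 to 6.89% of all genes) and in all running mice (8.08 to 10.4%). For all running mice only the 6 HFD-C mice were left out in turn, and no runner was. Among the running groups without HFD-50% replicate 4 the count was 0 (5.77% of all genes). Log2 differences that changed sign had these ranges. In HFD-25% they were −0.15 to 0.056 for Atp2a1, −0.54 to 0.21 for Atp2a2, −0.75 to 0.92 for Sln, −0.062 to 0.41 for Pln and −0.034 to 0.51 for Casq2. In HFD-50% they were −0.13 to 0.014 for Atp2a1, −0.038 to 0.35 for Pln and −0.14 to 0.39 for Casq2. In HFD-75% they were −0.78 to 0.40 for Sln and −0.021 to 0.60 for Casq2. In HFD-U they were −0.035 to 0.12 for Atp2a1, −1.02 to 0.35 for Sln, −0.11 to 0.052 for Casq1 and −0.51 to 0.074 for Casq2. In NFD-C they were −0.10 to 0.041 for Atp2a1, −0.093 to 0.061 for Casq1 and −0.10 to 0.16 for Pvalb. In all running mice they were −0.060 to 0.090 for Atp2a1, −0.32 to 0.20 for Atp2a2, −0.21 to 0.18 for Pln and −0.087 to 0.40 for Casq2. Shares that changed sign ran, in percentage points, from −0.213 to 0.189 for Atp2a2 in HFD-25%, for Casq2 from −0.0341 to 0.552 in HFD-25%, from −0.0610 to 0.455 in HFD-75% and from −0.319 to 0.0682 in HFD-U, and for Pln from −3.88 to 3.72 in HFD-25%, from −5.37 to 2.17 in HFD-U and from −4.79 to 3.504 in NFD-C. Of the 19 correlations past the adjusted p, 0 changed sign within a library set, without the 2 farthest mice or without the mice numbered 1. With 7 to 406 reads of Sln and 11 to 141 of Pln per library, counting error adds to the spread of these 2 genes.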
